A study of Mus musculus with 17 samples.

Results

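The HoxC cluster is a row of 9 homeobox genes, Hoxc4, Hoxc5, Hoxc6, Hoxc8, Hoxc9, Hoxc10, Hoxc11, Hoxc12 and Hoxc13, at chr15:102751534-102867274 (mm9) on the plus strand. Its loops were taken from H3K27ac HiChIP libraries as every loop with an anchor that overlaps this interval of 115741 bp, and an anchor was assigned to a gene whose transcription start site (TSS) lay within 5 kb. This gave 547 of the 1211657 loops and 18 of the 216081 anchors in the series. The loops held 2562 read pairs in the bulk libraries and 479 in the double positive libraries.

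All libraries came from mouse embryonic stem cells that formed embryoid bodies in hanging drops and were then kept with 0.5 µM retinoic acid (RA) for 4 days. The 12 bulk libraries hold unsorted cells, and the 5 double positive libraries, labelled cluster2, hold cells sorted for EpCAM and CD38 over several sorting runs. The bulk population includes double positive cells, and no untreated or earlier sample was analysed here, so the comparison is of a sorted fraction with the mixture it was taken from and not of RA with no RA. HiChIP joins DNA ends that lie close in the nucleus and enriches for those that carry H3K27ac, the acetylated histone found at regulatory DNA in use, so a read pair reports a contact and the mark at its ends together.

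Hox genes encode homeodomain transcription factors that give cells along the head-to-tail axis their position. In each cluster the gene order on the chromosome follows the order of expression, with genes of low number active early and towards the head, and genes of high number late and towards the tail. RA is a classical inducer of the low-numbered end, here the Hoxc4 end, while the high-numbered end, here the Hoxc13 end, is held by Polycomb proteins in many early cell types. Hoxc4 to Hoxc6 are known from the neck and forelimb level, Hoxc8 and Hoxc9 from the forelimb and chest level, Hoxc10 and Hoxc11 from the hindlimb level, and Hoxc12 and Hoxc13 from the tail and from hair follicles.

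The bulk libraries held 65148 to 241068 read pairs in loops (median 135054) and the double positive libraries 50508 to 118179 (median 85966). Of the loops listed in a library, 90.4 to 95.3% had a single read pair in bulk and 63.0 to 71.1% in double positive cells. Only 15074 of all joined anchors were used in both groups, and 200999 were used in bulk alone. Within the cluster 10 of the 18 anchors were used by a double positive loop, so a 0 at the other 8 cannot be told apart from an anchor that was not called there. The sort genes themselves had few read pairs: Epcam 13 in bulk and 25 in double positive libraries, and Cd38 36 and 51. The summed level of the 2 sort markers was 0 to 69.8 RPM (read pairs scaled to 1e6 in a library) in bulk libraries and 93.1 to 262 RPM in double positive libraries. The 11 endoderm markers summed to 392 to 621 RPM in bulk and 2877 to 4027 RPM in double positive libraries, and the 11 neural markers to 526 to 1273 and 660 to 879 RPM, with Sox3 at 0 in both groups and Isl1 at 0 in double positive libraries. The endoderm genes Col4a1 and Col4a2 each had 256 read pairs in double positive libraries (77 and 95 in bulk). Loops with an anchor near the start sites of both count for each gene, in these sums and in the calls below. With edgeR and TMM scaling 0 of 9 neural genes tested were higher and 7 lower. Of 11 endoderm genes 5 were higher and 1 lower, beside 20.6% higher and 42.8% lower over all genes. These counts with library size alone were 2 and 5 for neural genes and 10 and 0 for endoderm genes, beside 55.3 and 26.2%. The part of these markers in the results was not tested.

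The HoxC read pairs lay at the Hoxc4 end in bulk and at both ends of the cluster in double positive cells. In bulk, 92.02% ± 2.78 (SD, n = 12) of the anchor ends in the cluster lay nearest to a TSS of Hoxc4, Hoxc5 or Hoxc6, and the libraries ranged from 87.2 to 96.0% with a median of 92.5%. In double positive cells it was 55.1, 51.3, 53.9, 40 and 51.0% in replicates 1 to 5, with a mean of 50.3% ± 5.99. The groups did not overlap (two-sided exact permutation test over the 6188 ways to choose 5 of 17 libraries, p = 0.000162, the smallest it can give, and 0.000323 after Benjamini-Hochberg adjustment over 6 values). Fewer cells with a contact and fewer read pairs per cell cannot be told apart in these libraries. On the anchors used in both groups alone the shares were 93.6 and 50.3%, so the difference was as large without the anchors that double positive loops did not use.

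The rest of the ends in double positive cells lay mostly at the far end. Hoxc10 to Hoxc13 together held 4.59% ± 2.33 (SD, n = 12) of the ends in bulk libraries, from 1.88 to 9.30%. In double positive replicates 1 to 5 they held 40.5, 46.0, 40.4, 56.0 and 42.8%, all above the highest bulk library. Hoxc8 and Hoxc9 in the middle held 3.39% ± 1.63 in bulk and 4.58% ± 1.40 in double positive cells, and the libraries of the 2 groups overlapped. These shares over Hoxc8 to Hoxc13 are what remains of the tested value and have no test of their own.

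**Figure D1:**
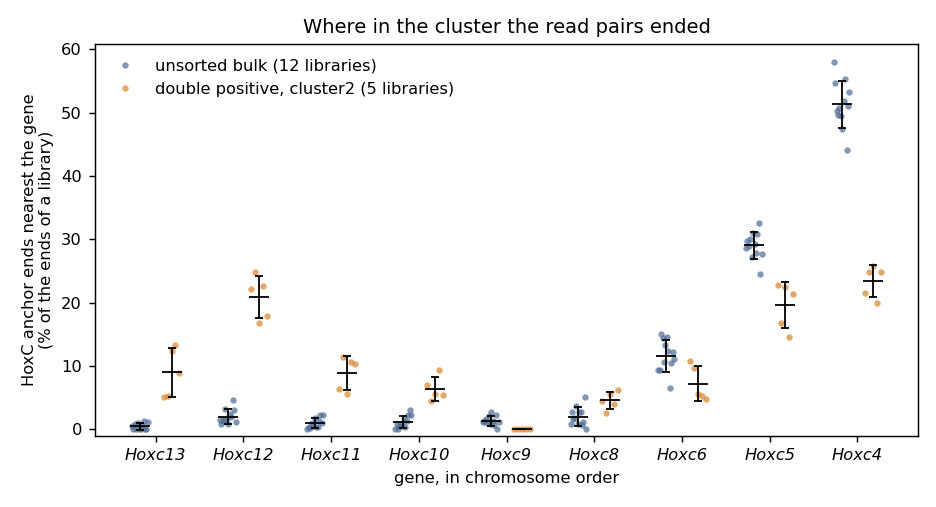
Percent of the HoxC anchor ends of a library (vertical axis) that lay nearest to each gene (horizontal axis, in chromosome order). Points are libraries, 12 bulk and 5 double positive, and black bars are the mean ± SD. Hoxc4 had the highest bulk mean, 51.3%, and Hoxc10 to Hoxc13 were higher in every double positive library than in any bulk library.

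At the Hoxc4 end, Hoxc4 itself held 44.2 to 58.0% of the ends in bulk libraries (median 50.9%) and 20 to 25.8% in double positive libraries. Hoxc5 held 24.5 to 32.6% and 14.7 to 22.8%, again with no overlap. Hoxc6 held 6.58 to 15.0% and 4.83 to 10.8%, and its groups overlapped. At the Hoxc13 end, Hoxc12 was the leading gene, with 0.783 to 4.65% of the ends in bulk and 22.2, 24.8, 16.9, 22.7 and 17.9% in double positive replicates 1 to 5. Hoxc13 held 0 to 1.32% in bulk and 5.06 to 13.3% in double positive cells, Hoxc11 0 to 2.33% and 5.62 to 11.5%, and Hoxc10 0 to 3.06% and 4.42 to 9.33%. In the order of the mean shares, bulk ran from Hoxc4 to Hoxc5 and Hoxc6 and then to genes at or under 2.02%. Double positive cells ran Hoxc4 (23.4% ± 2.5), Hoxc12 (20.9% ± 3.35), Hoxc5 (19.6% ± 3.66), Hoxc13 (9.01% ± 3.85), Hoxc11 (8.89% ± 2.71), Hoxc6 (7.25% ± 2.77), Hoxc10 (6.37% ± 1.88) and Hoxc8 (4.58% ± 1.40), in which neighbours differ by less than the larger of their SDs except Hoxc5 and Hoxc13.

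The promoters of Hoxc4 and Hoxc5, whose anchors led the Hoxc4 end, and of Hoxc12, the leading gene of the Hoxc13 end, are shown so that both ends can be read side by side. Each sequence is read from mm9 and runs from 250 bases before the TSS to 50 bases from it on, with CG in capitals.
Hoxc4, chr15:102864576-102864875, plus strand: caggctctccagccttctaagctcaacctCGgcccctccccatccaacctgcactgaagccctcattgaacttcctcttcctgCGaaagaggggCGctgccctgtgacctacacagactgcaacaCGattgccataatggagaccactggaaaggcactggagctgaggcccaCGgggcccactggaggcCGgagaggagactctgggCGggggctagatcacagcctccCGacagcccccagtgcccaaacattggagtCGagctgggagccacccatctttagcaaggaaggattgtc
Hoxc5, chr15:102843996-102844295, plus strand: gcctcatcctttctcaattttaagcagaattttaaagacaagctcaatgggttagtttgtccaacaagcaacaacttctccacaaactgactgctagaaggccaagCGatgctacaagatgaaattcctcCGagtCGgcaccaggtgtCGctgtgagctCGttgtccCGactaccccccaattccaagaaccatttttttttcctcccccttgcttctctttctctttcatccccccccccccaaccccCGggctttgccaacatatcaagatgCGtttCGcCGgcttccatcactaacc
Hoxc12, chr15:102766938-102767237, plus strand: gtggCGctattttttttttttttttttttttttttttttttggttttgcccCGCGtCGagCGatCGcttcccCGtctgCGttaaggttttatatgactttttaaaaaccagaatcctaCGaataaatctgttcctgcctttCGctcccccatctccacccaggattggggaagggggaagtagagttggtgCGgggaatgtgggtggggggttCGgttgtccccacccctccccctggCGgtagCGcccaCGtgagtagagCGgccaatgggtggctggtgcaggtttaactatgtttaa
The windows hold 9 CG in Hoxc4, 10 in Hoxc5 and 16 in Hoxc12. Over all 13 TSS windows of the cluster, those of Hoxc4 to Hoxc6 had 4 to 17 CG and those of Hoxc8 to Hoxc13 had 14 to 27, against a median of 10 over the 69969 windows of protein-coding genes. None of the 13 windows held a DR5 site for RA receptors, a DR2 site, the Pbx and Meis core, the Hox and Pbx site (TGATTNAT) or the CTCF core on either strand. Of all windows 0.00429, 0.0114, 0.151, 2.45 and 0.0243% held these. The Hox and Pbx letters were found once each in 3 of the 18 anchors, at chr15:102828755-102828762 (Hoxc6), chr15:102846890-102846897 (Hoxc5) and chr15:102863330-102863337 (Hoxc4). Anchors outside the cluster on both sides held these letters too. Anchors are wider than the promoter windows and no share over all anchors is given, so the 3 matches are no result about the Hoxc4 end. The edges of all 18 anchors lay at GATC, the site of the MboI enzyme used to cut the DNA, and the anchors were 1296 to 7218 bp wide.

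Read pairs were also summed per gene over the loops with an anchor in its TSS window, and the groups were compared over all genes with edgeR (TMM scaling). On this scale 3 of the 9 genes were higher in double positive cells, Hoxc11, Hoxc12 and Hoxc13, and 4 were lower, Hoxc4, Hoxc5, Hoxc6 and Hoxc9. No double positive loop used an anchor of Hoxc9, so its call cannot be told apart from anchors not called there. Of the 14115 genes tested, 20.6% were called higher and 42.8% lower, so the counts of 3 and 4 of 9 are not far from these shares and are no result about the cluster as a whole. The windows of neighbouring genes share anchors: the anchor at chr15:102843161-102847423 lies in those of Hoxc4, Hoxc5 and Hoxc6.

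Hoxc4 had 775 to 2301 RPM in bulk libraries (median 1114) and 542, 512, 843, 554 and 618 RPM in double positive replicates 1 to 5. The highest double positive library lay above the lowest bulk library, and bulk replicates 1 to 4 stood at or above 1851 RPM while the other 8 lay at or under 1347 RPM. The log2 fold change of double positive over bulk was -2.94 ± 0.24 (SE, edgeR adjusted p = 1.84e-12). Hoxc5 had 342 to 1020 RPM in bulk (median 581) and 305, 221, 392, 218 and 299 RPM in double positive cells, with a log2 fold change of -2.95 ± 0.25 (adjusted p = 5.17e-12). Hoxc6 had 355 to 1085 RPM in bulk (median 612) and 448, 349, 470, 297 and 357 RPM in double positive cells, with a log2 fold change of -2.63 ± 0.24 (adjusted p = 2.63e-11). The lower value of Hoxc6 was not seen with its 5′-most TSS alone (log2 fold change 0.24, edgeR adjusted p = 0.656). Its TSSs at 102830960 and 102839910 were not fitted apart. The anchor chr15:102834690-102837325 (66 read pairs in bulk, 0 in double positive cells) lay within 5 kb of both. The anchors chr15:102839370-102840803 (260 and 0) and chr15:102843161-102847423 (900 and 117) lay within 5 kb of 102839910 and of no other Hoxc6 TSS. The last of these is the one shared with Hoxc4 and Hoxc5.

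Hoxc13, which drives hair keratin genes, had 0 to 19.7 RPM in bulk libraries (median 6.57), with a read pair in 6 of 12, and 67.7, 69.8, 216, 198 and 126 RPM in double positive replicates 1 to 5. No bulk library reached the lowest double positive library, and the log2 fold change was 2.09 ± 0.53 (edgeR adjusted p = 0.00089). Hoxc12 had 0 to 33.5 RPM in bulk (median 19.0) and 203, 233, 196, 158 and 126 RPM in double positive cells, with a log2 fold change of 1.61 ± 0.38 (adjusted p = 0.000429). Hoxc11 had 0 to 30.7 RPM and 84.6, 151, 98.0, 158 and 145 RPM, with a log2 fold change of 1.55 ± 0.42 (adjusted p = 0.0017). Hoxc10 also did not overlap between the groups, with 0 to 34.6 RPM in bulk and 58.2 to 139 RPM in double positive cells, but its log2 fold change of 0.82 ± 0.47 did not pass (adjusted p = 0.125). With loops between anchors used in both groups alone Hoxc13 was still called higher (1.34, adjusted p = 0.0413), while Hoxc11 (0.96, adjusted p = 0.121) and Hoxc12 (0.60, adjusted p = 0.24) were not.

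The middle of the cluster had few read pairs. Hoxc8, a gene of motor neurons at the forelimb level, had 65 read pairs in bulk and 27 in double positive libraries, at 0 to 74.7 and 34.9 to 98.0 RPM. Its log2 fold change was -0.95 ± 0.43 (edgeR adjusted p = 0.0527) and turned to 0.78 with library size alone (adjusted p = 0.106). Hoxc9, which specifies motor neurons of the chest level, had 43 read pairs in bulk, in 11 of 12 libraries, and 0 in double positive libraries. None of its 3 anchors was used by a double positive loop, so no fold is given although the fit called it lower.

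The scale bears on every one of these levels. The median log2 fold change of all genes was -0.52 with TMM and 1.21 with library size alone, where Hoxc10 was called higher too and 4 of the 9 genes were higher and 4 lower, beside 55.3 and 26.2% of all genes. Relative to the median gene the values were almost the same on both scales. A change of scale moves all genes by about the same amount, so this closeness is no test of the pattern. Relative to the median gene, Hoxc4, Hoxc5 and Hoxc6 had log2 fold changes of -2.44 to -2.12 with TMM and of -2.41 to -2.09 with library size alone. Hoxc10 to Hoxc13 had 1.34 to 2.61 and 1.34 to 2.60.

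**Figure D2:**
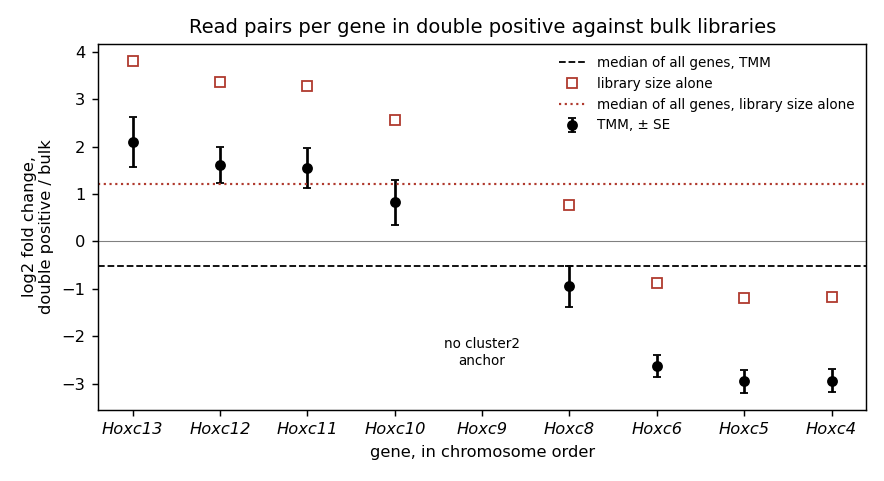
Log2 fold change of read pairs per gene, double positive over bulk (vertical axis), for the genes in chromosome order (horizontal axis). Filled points are TMM values with their SE, open squares are values with library size alone, and the lines are the medians of all genes, -0.52 and 1.21. Hoxc9 is left out because no double positive loop used its anchors; Hoxc10 to Hoxc13 lie above the median of their scale and Hoxc4 to Hoxc8 below it.

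The leading anchors showed the same order at a finer scale, but not every anchor did. The upstream Hoxc6 anchor (chr15:102828571-102831266) had 38 read pairs in bulk and 44 in double positive cells (log2 fold change 0.52, edgeR adjusted p = 0.257). The anchor at the Hoxc8 TSS (chr15:102819422-102822320) had 22 and 27 (0.63, adjusted p = 0.25). In bulk the anchor with the most read pairs was that at the downstream TSS of Hoxc4 (chr15:102862626-102867248), with 21 to 222 read pairs in a library (median 60.0) and 1017 in all, and it had 25, 24, 18, 14 and 28 in double positive replicates 1 to 5. The Hoxc5 anchor (chr15:102843161-102847423) had 900 in bulk and 36, 19, 20, 11 and 31 in double positive cells. In both groups these were the anchors with the most read pairs in the cluster. The anchor chr15:102858814-102860811 between the 2 Hoxc4 start sites had 473 in bulk and 27 in double positive cells, a share of 15.3 and 4.66% of the ends.

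At the Hoxc13 end the Hoxc12 anchor (chr15:102761102-102768320) had 0 to 5 read pairs in a bulk library (27 in all) and 24, 20, 10, 8 and 13 in double positive replicates. The Hoxc11 anchor (chr15:102783553-102787545) had 0 to 2 in a bulk library (12 in all) and 10, 13, 5, 8 and 15. The Hoxc13 anchor (chr15:102750382-102753305) had 0 to 4 in a bulk library (13 in all) and 8, 6, 11, 10 and 13. In each of these 3 anchors every double positive library exceeded every bulk library in read pairs. The bulk libraries were on the whole deeper, but their read pairs were spread over more anchors, 200999 of them used in bulk alone. The share of all anchors with no overlap between the groups is not given here. The log2 fold changes of these 3 anchors were 1.71 ± 0.38, 2.27 ± 0.48 and 2.18 ± 0.52 (edgeR, adjusted p = 6.48e-05, 3.2e-05 and 0.000135).

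Of the 15 HoxC anchors tested, 4 were called higher and 8 lower, beside 10.5 and 75.5% of all 43452 anchors tested. The fourth that rose was chr15:102772672-102775256, 6776 bp from the Hoxc12 TSS (23 read pairs in bulk, 46 in double positive cells). The 8 that fell include 5 that no double positive loop used, among them those at the downstream Hoxc6 TSS (chr15:102839370-102840803, 260 read pairs in bulk) and past the upstream Hoxc4 TSS (chr15:102850968-102852536, 120 read pairs). With anchors used in both groups alone 2 of 10 were called higher and 3 lower, beside 3563 higher and 2074 lower of all 12510 tested. The Hoxc12 anchor was then no longer called (log2 fold change 0.85).

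Inside the cluster, that is with both ends in it, lay 20.9% ± 5.29 (SD, n = 12) of the HoxC read pairs of a bulk library, from 10.3 to 27.7%, and 20.9% ± 2.81 (n = 5) in double positive cells, where replicates 1 to 5 had 20.6, 17.7, 21.9, 19.0 and 25%. The difference was within the spread (exact permutation test, adjusted p = 0.976). It depended on what was counted: double positive cells were 3.96 percentage points higher with each loop counted once (adjusted p = 0.0166) and 5.44 higher with spans of at least 20 kb (adjusted p = 0.000194, exact permutation tests). The exact 95% binomial interval of a double positive library's share was wide, 10.2 to 30.9% for the one with the fewest read pairs, and covers counting error only.

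What these inside read pairs joined was not alike. In bulk 471 of 526 (89.5%) had both ends at Hoxc4 to Hoxc6, 15 (2.85%) had both at Hoxc8 to Hoxc13, and 40 (7.605%) ran between these parts. In double positive cells 35 of 101 (34.7%) stayed within Hoxc4 to Hoxc6, 38 (37.6%) within Hoxc8 to Hoxc13, and 28 (27.7%) ran between them. These are sums over libraries, with no test. The leading pair of genes was Hoxc4 with Hoxc5 in both groups, 236 read pairs in bulk, in 12 of 12 libraries, and 22 in double positive cells, in 5 of 5. Hoxc12 with Hoxc13 had 2 read pairs in bulk and 10 in double positive cells, where all 5 libraries held it.

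**Figure D3:**
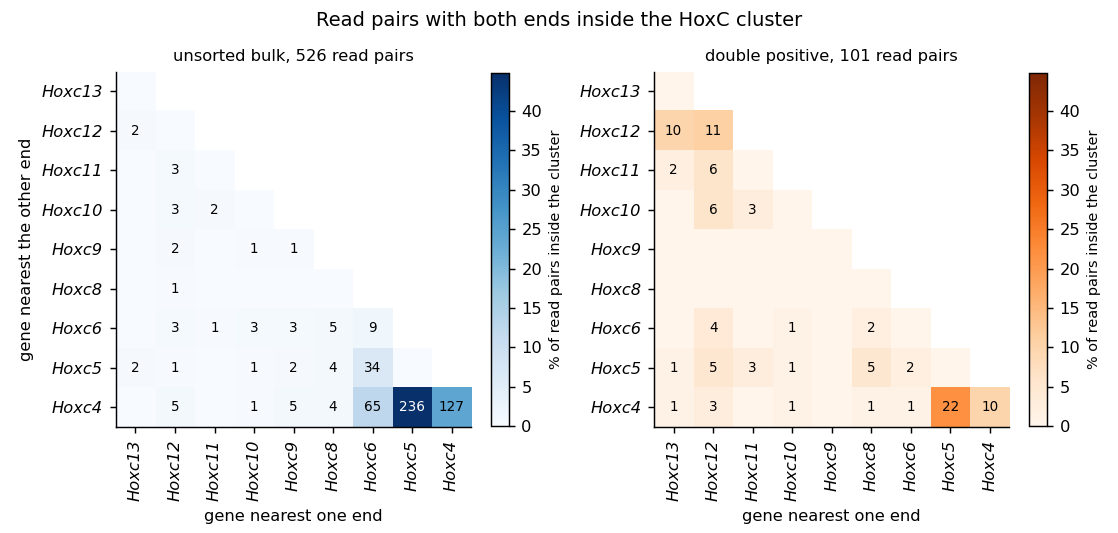
Read pairs with both ends inside the HoxC cluster by the genes nearest to their ends (both axes, chromosome order), summed over 12 bulk libraries (left, 526 read pairs) and 5 double positive libraries (right, 101 read pairs). Colour is the percent of these read pairs and the numbers are read pairs. Of the bulk read pairs 471 of 526 lie in the Hoxc4 to Hoxc6 corner, while the double positive read pairs lie in that corner, in the Hoxc10 to Hoxc13 corner and, for 28 of 101, between Hoxc4 to Hoxc6 and Hoxc8 to Hoxc13.

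The loop with the most read pairs joined the Hoxc5 anchor to the downstream Hoxc4 TSS over 19.6 kb, with 2 to 27 read pairs in a bulk library (median 11.5, 141 in all) and 5, 2, 3, 2 and 4 in double positive replicates 1 to 5. Its log2 fold change was -3.39 ± 0.41 (edgeR adjusted p = 1.93e-14). The loop from the downstream Hoxc4 TSS back to chr15:102858814-102860811 over 5.1 kb had 101 and 10 read pairs. The other loops that led in bulk or passed with the smallest p left the cluster beyond Hoxc4. The downstream Hoxc4 TSS met chr15:102889765-102893218 with 90 and 8 read pairs over 26.6 kb, and the Hoxc5 anchor met the same partner with 85 and 4 over 46.2 kb. The loop with the smallest p, from the downstream Hoxc4 TSS to chr15:102872022-102873745 over 7.9 kb, had 69 read pairs in bulk and 0 in double positive cells, where its outer anchor was not used.

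All 33 HoxC loops with enough read pairs for the test were lower in double positive cells, 6 inside the cluster and 27 beyond Hoxc4, beside 22.4% lower and 38.1% higher among the 5369 loops tested in the series. With library size alone 20 of the 33 were lower and none higher, beside 13.8 and 76.9%. The filter on read pairs favours loops that bulk, with more libraries, holds, and no loop beyond Hoxc13 or between Hoxc10 and Hoxc13 was deep enough to be tested. The loop from the Hoxc12 anchor to chr15:102772672-102775256, which is nearest to Hoxc12 but over 5 kb from its TSS, was such a case, with 2, 3, 1, 0 and 5 read pairs in double positive replicates and 0 in all bulk libraries. Set against a floor of 3 counts over the bulk group, its 11 read pairs in double positive cells were 14.5-fold higher in RPM. The counting error of the 11 is not in this fold, so it is no lower bound. RPM is scaled by library size alone, where the median log2 fold change of the loops tested was already 2.99. With no filter on counts edgeR called this loop higher (adjusted p = 0.032). That fit called 5 HoxC loops lower in place of 33, and 9 were lower in libraries thinned to the smallest total. No share over all loops is given for either.

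The loops listed by each group are given as counts, with no share over all loops of the series beside them. Bulk libraries listed 434 HoxC loops and double positive libraries 205, of which 92 were in both, 21.2% of the bulk set and 44.9% of the double positive set. The share in both was highest inside the cluster, 21 of the 29 double positive loops, and 53 of 105 beyond Hoxc4. It was 18 of 71 beyond Hoxc13. A single read pair over the group was all that 218 of the bulk loops and 108 of the double positive loops had. On anchors used in both groups lay 24 of 57 bulk loops inside the cluster, 99 of 273 beyond Hoxc4 and 45 of 104 beyond Hoxc13. The other bulk loops could not be in both sets, so the overlap is no result about HoxC.

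Fewer of the read pairs that left the cluster went out beyond Hoxc4 in double positive cells than in bulk. Of the read pairs that left the cluster, 91.9% ± 3.48 (SD, n = 12) went out beyond Hoxc4 in bulk, from 83.8 to 95.8% with a median of 92.9%. In double positive replicates 1 to 5 this was 66.3, 72.2, 71.9, 62.7 and 74.7%, with a mean of 69.6% ± 4.89. The groups did not overlap (exact permutation test, adjusted p = 0.000323, from the smallest p the test can give). In read pairs, 1902 left beyond Hoxc4 and 134 beyond Hoxc13 in bulk, and 264 and 114 in double positive cells. The chromosome ends 627.7 kb beyond Hoxc4, which limits how far loops can reach on that side.

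The difference was also seen among read pairs from the Hoxc4 end itself. Of the outgoing read pairs that started at Hoxc4 to Hoxc6, 94.97% ± 2.53 (SD, n = 12) went out beyond Hoxc4 in bulk, from 88.1 to 98.4%. In double positive replicates 1 to 5 this was 83.6, 86.7, 76.5, 81.8 and 79.1%, all below the lowest bulk library. Those that started at Hoxc8 to Hoxc13 went out beyond Hoxc4 in 63.9% of 144 read pairs in bulk and 56.4% of 179 in double positive cells, and the libraries overlapped. Both are descriptions, with no test. In double positive cells the Hoxc13 anchor had 26 read pairs beyond its own end and 8 beyond Hoxc4. The Hoxc11 anchor had 10 and 27 and the Hoxc10 anchor 3 and 21, so most of theirs ran across the cluster.

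**Figure D4:**
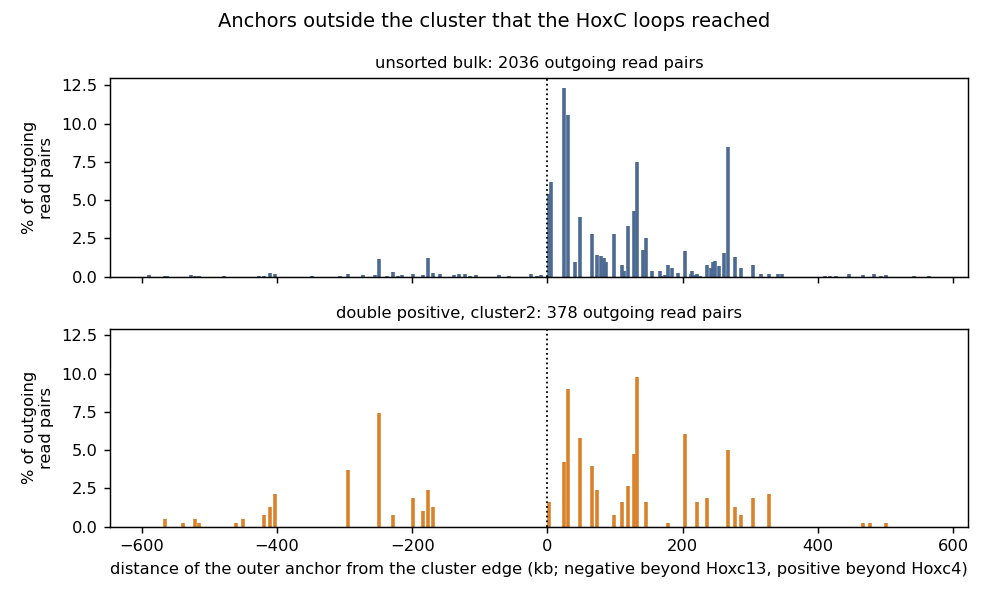
Anchors outside the cluster by their distance from the cluster edge in kb (horizontal axis, negative beyond Hoxc13, positive beyond Hoxc4) and the percent of the outgoing read pairs that ended at each (vertical axis), summed over 12 bulk libraries and over 5 double positive libraries. Bulk lines stand almost all beyond Hoxc4, and double positive lines stand on both sides. The highest double positive line lies beyond Hoxc4, and the highest of those on the Hoxc13 side is at 248.8 kb. Anchors farther than 640 kb are not drawn.

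By distance, the first 50 kb beyond Hoxc4 took 37.7% ± 5.39 (SD, n = 12) of the outgoing read pairs in bulk and 20.8% ± 2.73 (n = 5) in double positive cells. The next 100 kb took 30.6% ± 5.34 and 27.6% ± 4.87. On the other side, anchors between 150 and 300 kb beyond Hoxc13 took 4.91% ± 2.85 in bulk and 19.7% ± 5.88 in double positive cells, and those farther out 1.74% ± 1.24 and 10.7% ± 4.52. Within 150 kb of Hoxc13 no anchor was used by a double positive loop, and bulk had 6 read pairs in the first 50 kb and 14 in the next 100 kb.

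Of the outer anchors, the leading 2 in bulk lay in the stretch of 116.5 kb between Hoxc4 and Smug1. They were chr15:102889765-102893218 at 24.2 kb from the cluster (251 read pairs in bulk, 16 in double positive cells) and chr15:102894736-102900672 at 30.4 kb (215 and 34), and that at Gpr84, chr15:103129828-103139222, followed (173 and 19). In double positive cells chr15:102998459-103002070 at 133.0 kb led, with 37 read pairs and 152 in bulk, and chr15:102894736-102900672 followed. Those at 24.2, 30.4 and 133.0 kb had no TSS of a protein-coding gene within 5 kb. The loop from the Hoxc5 anchor to the one at 133.0 kb had 0 to 10 read pairs in a bulk library and 6, 2, 3, 1 and 1 in double positive replicates. It was lower with TMM (log2 fold change -2.01 ± 0.47, edgeR adjusted p = 6.64e-05) and 0.24 with library size alone (adjusted p = 0.647).

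Of the genes next to the cluster, those joined to it most in bulk all lay beyond Hoxc4. Gpr84, a fatty acid receptor of immune cells, had 199 read pairs with the cluster in bulk and 24 in double positive cells. Smug1, which removes uracil from DNA, had 155 and 28. Cbx5, which encodes heterochromatin protein HP1 alpha, had 62 and 24, Hnrnpa1, an RNA-binding splicing factor, 34 and 23, and Copz1, a coat subunit of transport vesicles, 26 and 7. As a share of a library's HoxC read pairs, Gpr84 took 2.78 to 9.89% in bulk and 4.17 to 6.85% in double positive libraries, and Smug1 3.36 to 8.33% and 4.11 to 7.76%, so for both the groups overlapped.

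Beyond Hoxc13 the leading partner in double positive cells was Atp5g2, a subunit of the mitochondrial ATP synthase, 250.1 kb from the cluster. It had 25 read pairs with the cluster in bulk and 28 in double positive cells, as many as Smug1 there. It took 0 to 2.41% of the HoxC read pairs of a bulk library and 3.82 to 10.96% of a double positive library, with no overlap. Its loop to the Hoxc13 anchor over 249.1 kb had 1 read pair in bulk and 1, 1, 1, 2 and 3 in double positive replicates 1 to 5. The transcription factor gene Atf7 (4 and 14 read pairs) and the kinase gene Map3k12 (8 and 13), farther out on the same side, did not overlap between the groups as a share either.

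The flanking genes were also read over all their loops, each side on its own, with no test between the sides. Of the 48 protein-coding genes with a TSS within 1 Mb, 40 were tested. Beyond Hoxc13, 22 of 29 were higher in double positive cells and 1 lower, with a median log2 fold change of 1.19. Beyond Hoxc4, 1 of 11 was higher and 5 were lower, with a median of -0.49. Over all genes 20.6% were higher and 42.8% lower, with a median of -0.52. With library size alone 28 of 29 were higher and 1 lower beyond Hoxc13 (median 2.90), and the count beyond Hoxc4 turned to 7 of 11 higher and 1 lower (median 1.27), beside 55.3% higher and 26.2% lower over all genes (median 1.21). The flanking genes share anchors with each other, and Gm17649 shares that of Hoxc13.

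The median span of a HoxC read pair was 76243 bp ± 27342 (SD, n = 12) in bulk, from 50397 to 131373 bp, and 156947, 163646.5, 154972.5, 154972.5 and 143703.5 bp in double positive replicates 1 to 5. All double positive libraries lay above the longest bulk library (exact permutation test, adjusted p = 0.000323). Over all loops of a library the order was the other way, with a mean of the medians of 131306 bp in bulk and 78846 bp in double positive cells.

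**Figure D5:**
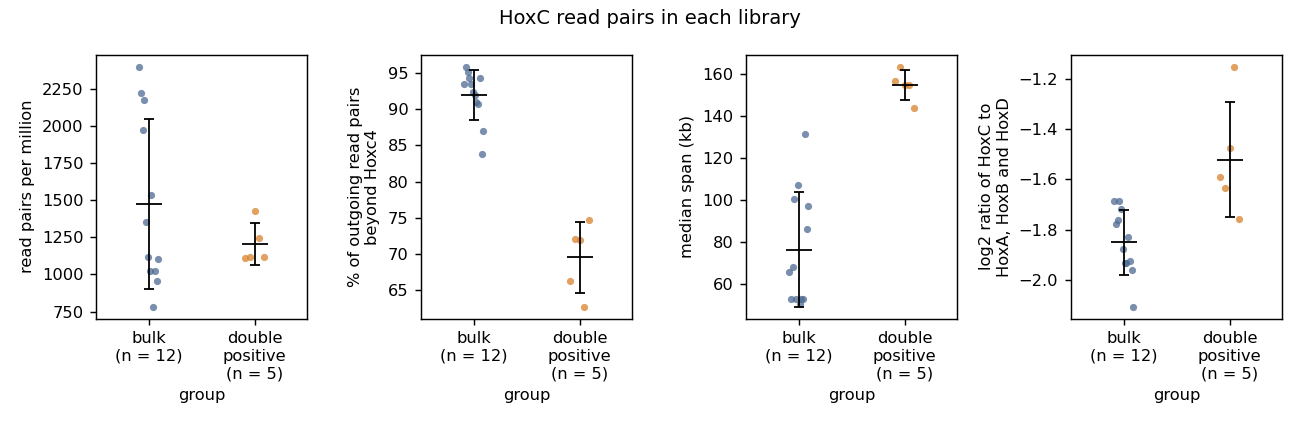
HoxC level in RPM, percent of outgoing read pairs beyond Hoxc4, median span in kb and log2 ratio of HoxC read pairs to those of the other Hox clusters (vertical axes) in bulk (n = 12) and double positive (n = 5) libraries. Points are libraries and bars are the mean ± SD. The share beyond Hoxc4 and the span did not overlap between the groups, while the RPM and the ratio to the other clusters did.

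The total of HoxC read pairs did not differ beyond its spread. It was 1473 ± 572 RPM (SD, n = 12) in bulk, from 782 to 2400, and 1108, 1117, 1430, 1247 and 1120 RPM in double positive replicates 1 to 5. The means differed by less than the spread between bulk libraries (exact permutation test, adjusted p = 0.399). With TMM effective library sizes in place of library size the means were 2381 in bulk and 380 in double positive cells (adjusted p = 0.000485), so whether HoxC was lower depends on the scale. Counting each loop once in a library, whatever its read pairs, the order turned, with 803 HoxC loops in bulk and 1594 in double positive cells when scaled as RPM is (adjusted p = 0.000194).

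Against the other Hox clusters, a ratio that needs no scale between libraries, HoxC was higher in double positive cells. The log2 ratio of HoxC read pairs to those of HoxA, HoxB and HoxD together was -1.85 ± 0.13 (SD, n = 12) in bulk and -1.59, -1.63, -1.48, -1.15 and -1.76 in double positive replicates 1 to 5, a mean of -1.52 ± 0.23. The difference passed the test (exact permutation test, adjusted p = 0.00121), with overlap between the groups. In bulk and double positive libraries HoxA had 1428 ± 688 and 2288 ± 302 RPM, HoxB 2900 ± 926 and 869 ± 142 RPM, and HoxD 879 ± 291 and 310 ± 60.9 RPM. Against HoxA alone the difference was -1.02 (adjusted p = 0.000485), and on anchors used in both groups the difference was 0.07 (adjusted p = 0.651).

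The other clusters were read in the same way. Ends at paralogue groups up to 6 were 92.02% in bulk and 50.3% in double positive cells in HoxC, 93.7% ± 5.03 and 69.9% ± 9.59 in HoxD, 76.3% ± 2.23 and 66.5% ± 3.34 in HoxB, and 87.1% ± 3.47 and 86.4% ± 2.64 in HoxA. The difference between clusters was not tested. In HoxA none of 12 gene identifiers was called higher and 8 were lower with TMM, in HoxB 0 and 10 of 10, and in HoxD 0 and 6 of 8 tested, with median log2 fold changes of -1.19, -3.50 and -2.71, beside 20.6% higher and 42.8% lower over all genes. With library size alone HoxA turned, with 6 higher and 0 lower (median 0.58), while HoxB had 0 and 9 and HoxD 2 and 4, beside 55.3 and 26.2% over all genes. The end genes Hoxa13, Hoxb13 and Hoxd13 had 17, 34 and 38 read pairs in bulk and 20, 0 and 10 in double positive cells. Hoxd10 and Hoxd11 also had 0 in double positive cells, and like Hoxb13 they are among the genes called lower. These 0 values cannot be told apart from anchors that were not called in double positive libraries.

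Partners of Hox proteins and regulators of Hox genes were read from lists chosen by name. Of 7 Hox cofactors of the Pbx and Meis families, which bind DNA together with Hox proteins, 1 was higher, Pbx4 (88 and 199 read pairs, log2 fold change 1.40, edgeR adjusted p = 2.64e-05), and 5 were lower, beside 20.6 and 42.8% over all genes. On library size alone 2 were higher and 2 lower, beside 55.3 and 26.2%. Of 14 genes of the RA, Cdx and Polycomb pathways, 12 were tested, 2 were higher and 4 lower with TMM, which is close to the shares over all genes, and 7 were higher and 2 lower with library size alone. The higher 2 were Kdm6b, which removes the Polycomb mark (608 and 951 read pairs, log2 fold change 0.93), and the RA receptor gene Rarg (40 and 65 read pairs, 0.92), which also lies within 1 Mb of the cluster beyond Hoxc13. The lower 4 were Rarb, an RA receptor gene that RA induces (346 and 0 read pairs), Cdx1, an activator of Hox genes (28 and 0), and the Polycomb genes Ezh2 (55 and 17 read pairs, log2 fold change -1.39) and Eed (101 and 26 read pairs, -1.73). The 0 of Rarb and Cdx1, like that of Hoxc9, cannot be told apart from anchors that were not called in double positive libraries, and no fold is given. With library size alone Kdm6b, Rarg and Pbx4 kept their direction and call, and Ezh2 and Eed stood at 0.32 and 0.02, not called.

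Across the 12 bulk libraries the genes whose log2(CPM + 1) followed that of the HoxC cluster most closely were Hoxb2 (Pearson r = 0.94), Hoxb3 (0.93), Hoxd3 (0.90), Hoxb6 (0.90) and Hoxb4 (0.89), of 99 genes with at least 500 bulk read pairs and no TSS within 2 Mb. These points share libraries and depth, and the correlations are a description.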

How the data were processed

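H3K27ac HiChIP loops of 12 bulk and 5 double positive libraries were analysed. The authors mapped reads to mm9 with HiC-Pro, per the labels, and called loops with hichipper. The deposited tables hold counts, the read pairs of each loop in column 8, and list only loops with a read pair. The depth of a library is its read pairs in loops, 50508 to 241068, and it limits single loops most.

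Overlapping anchors of all libraries were joined, and 700 read pairs whose anchors fell into the same joined anchor were dropped. TSSs are those of protein-coding transcripts. Sums per gene (TSS within 5 kb), anchor and loop were tested with edgeR 4.0.16 (R 4.3.3), quasi-likelihood, TMM, Benjamini-Hochberg adjusted p under 0.05. The filter kept those with a total of 20 or more over all libraries together and a count above 0 in 5 or more libraries. The quantities per library were tested by a two-sided exact permutation test over 6188 splits. Whether libraries come from separate cultures is not given in the sources used here, so p-values measure the spread between libraries, which may be technical. Intervals cover counting error only, and the floor covers that of the bulk counts alone.

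On simulated data with 200 genes of 14115 changed 4-fold, 67% were recovered and 9.46% of the calls were false, above the threshold of 0.05. For anchors 29.5% were recovered (6.35% false), and for loops 35.5% (2.74% false).

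All 9 Hoxc genes are named, with the 3 anchors and 3 loops of most read pairs in each group and of smallest p in each direction, the 5 flanking genes most joined to the cluster in each group, and the 5 genes most alike over bulk libraries. Where other genes or loops are given, they were chosen after their values were seen. The members and lists were chosen with earlier results of these data known. Alternatives were library size alone, TMMwsp, DESeq2 1.42.0, other filters, anchors used in both groups, thinned libraries, each loop counted once, and each replicate left out. Leaving out bulk replicates and taking the gene start as the TSS were chosen after seeing the data. Some items are not reported here.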

Additional observations from a re-analysis of the deposited data

Results flagged for a closer look

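In the group of 5 double positive libraries, 14 values were checked for a library that lies far from the rest, and 1 value had such a library. The share of HoxC anchor ends at Hoxc4 to Hoxc6 was 40.0% in double positive replicate 4, and 51.0 to 55.1% in the other double positive libraries. The rule for this marks about 1 in 20 such checks by chance. The bulk group, with more than 10 libraries, was not checked.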

How the results depend on the processing

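The share of ends at Hoxc4 to Hoxc6, the share beyond Hoxc4 and the median span kept their direction and call in every alternative run. Leaving out each library in turn gave differences, double positive minus bulk, of -42.9 to -39.2 percentage points, -23.7 to -20.7 percentage points and 76256 to 83617 bp. The same gave 0.24 to 0.39 for the log2 ratio to the other clusters, -331 to -184 RPM, 3 genes higher and 4 to 5 lower, 4 to 5 anchors higher and 8 lower, and 28 to 33 loops lower. The share inside the cluster, not called, ran from -1.11 to 0.71 percentage points and changed sign without some libraries. It was 3.96 with each loop counted once and 5.44 with spans of at least 20 kb (adjusted p = 0.0166 and 0.000194, exact permutation test). The HoxC RPM differed by 791 with each loop counted once, by -6381 on anchors used in both groups and by -2001 with TMM effective library sizes. The log2 ratio was 0.0685 on anchors used in both groups and -1.02 against HoxA alone. On anchors used in both groups 1 of 8 genes was called higher and 3 lower, beside 1975 higher and 1151 lower of all 9845. Of 10 anchors 2 were higher and 3 lower, beside 3563 and 2074 of all 12510. With library size alone 7 of 15 anchors were higher and 8 lower, beside 22.7 and 69.4% of all anchors. Of 33 loops 20 were then lower and 0 higher, beside 13.8 and 76.9% of all loops. On that scale Hoxc8 was at 0.78 and the loop from Hoxc5 over 155.0 kb at 0.24. Loops called lower were 13 with at least 50 read pairs, 9 in thinned libraries and 5 with no filter, where 1 was higher. Fewer loops tested or fewer read pairs come with the stricter filter and the thinning, and the cause of the other changes was not tested. Hoxc6 was at 0.24 with the gene start as the TSS. The groups share replicate numbers 1 to 5 only as numbers. With a replicate block over these libraries 4 genes were higher and 5 lower, 4 anchors higher and 8 lower and 22 loops lower, and with no replicate block 4 and 5, 5 and 8, and 22. Shares over all features are not given for the counts with other filters, thinning, a library left out or replicates 1 to 5 alone. Those counts are therefore no result about the cluster.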
